A study of Danio rerio with 6 samples.

Results

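The FoxO transcription factors of the zebrafish (Danio rerio) were followed in RNA from whole embryos at 4 days post fertilization. The members were the genes with the symbols foxo1a, foxo1b, foxo3a, foxo3b and foxo4, and all 5 were found among the 31452 genes of the deposited tables, foxo4 being written there in capitals. In the glut12 MO group, embryos carried a splice-blocking morpholino against glut12, the sugar transporter gene listed as slc2a12. In the Control MO group, embryos had received a control morpholino in its place. Morpholinos are antisense oligomers that pair with RNA, and such a knockdown is transient and acts in the whole embryo. Each group had 3 libraries, each from total RNA of 10 pooled embryos. No strain or genotype is named in the labels, and nothing in them tells if different clutches supplied the pools, so the p-values reflect only how far these pools differ, part of which may be technical.

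FoxO proteins are forkhead transcription factors that act downstream of the insulin and insulin-like growth factor receptors. When these receptors are active, the kinase Akt phosphorylates FoxO, 14-3-3 proteins bind it and it leaves the nucleus. When insulin signalling is low, FoxO stays in the nucleus and drives genes of gluconeogenesis, autophagy, muscle protein breakdown, stress resistance and cell cycle arrest. A transcript level therefore shows how much FoxO message was present and not how active the protein was.

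Values are normalised read counts, which the authors had divided by a factor for each library and rounded to whole numbers. They are not divided by transcript length, so levels are compared between libraries and not between genes. Estimated depths were 15180000, 14420000 and 9490000 reads in glut12 MO 1, 2 and 3, and 7550000, 11500000 and 10250000 reads in Control MO 1, 2 and 3. Control MO 1 stood apart. On the first principal component of 15942 genes, which held 64.5% of the variance, it lay at 58.6, against -24.1 to -17.0 for the glut12 MO libraries and 0.475 to 5.12 for the other controls. The targeted gene slc2a12 was at 98, 97 and 90 in glut12 MO and at 160, 145 and 143 in Control MO. A splice-blocking morpholino need not lower a transcript's read count. Markers of 8 tissues (24 genes, among them muscle, brain, liver, blood, heart, lens, pancreas and skin genes) were above 0 in every library. The values of some of them moved with the groups. The summed level was 249172 to 285879 in glut12 MO and 332969 to 370853 in Control MO. Most of it came from the muscle genes, at 143280 to 166832 in glut12 MO and 198162 to 220316 in Control MO. Sums by tissue separated the groups, lower in glut12 MO, for muscle, skin and lens. They overlapped for liver, blood, heart, neural and pancreas genes. Without overlap, 11 of 24 markers were lower and 2 higher, against 10.2% and 11.6% of all genes. At an unadjusted p of 0.05, limma gave 13 as lower and 0 as higher, against 6.93% and 8.99% of all genes. After adjustment limma and voom called 0. With library weights 6 were called, against 0.429% of all genes called lower and 0.832% called higher. Muscle (acta1b, log2 fold change -0.61), skin (krt5, -0.55) and liver (tfa, -0.55) markers were among the lower ones. The other liver markers, fabp10a (-0.17) and apoa2 (-0.05), and the muscle marker ckma (-0.21) overlapped between the groups. Of the heart markers, myl7 (-0.49) was lower and nppa (0.24) higher without overlap, and vmhc (0.27) overlapped. The neuronal marker elavl3 was at 2310, 2531 and 2416 in glut12 MO and at 737, 1897 and 2106 in Control MO, lowest in Control MO 1 as the FoxO genes below were. The other neural markers pointed the other way. The log2 fold change of gfap was -0.37 without overlap, and that of snap25a was -0.17, with its highest value, 4042, in Control MO 1. The part of tissue makeup in the FoxO values was not tested.

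No FoxO gene passed the test between the groups. Every member had a positive log2 fold change over the 6 libraries, that of foxo1b turning negative without Control MO 1, with fitted folds of 2.23 for foxo1a and 2.03 for foxo4 and of 1.18, 1.07 and 1.16 for foxo1b, foxo3a and foxo3b. By limma with Benjamini-Hochberg adjustment over 26082 genes, 0 of 5 members were called, beside a background of 0.023% of genes called higher and 0% called lower. At an unadjusted p of 0.05, limma gave 2 of 5 members as higher, foxo1a and foxo4, against 8.99% of all genes higher and 6.93% lower at that p. After adjustment 0 members were also called by voom on estimated reads, against 0.0307% of genes higher and 0.00767% lower, and with library weights in limma, against 0.832% higher and 0.429% lower. In foxo1a, foxo3a and foxo4 every glut12 MO library lay above every control, against 11.6% of all genes. In whole-embryo RNA, fewer cells of a type and less RNA per cell cannot be told apart.

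FoxO1 is known in mammals as the main FoxO of insulin-responsive liver and as a regulator of beta cells and blood vessels, and the zebrafish has 2 copies. The row named foxo1a (ENSDARG00000063540, chromosome 16 in Zv9) was at 106, 112 and 137 in glut12 MO 1, 2 and 3 and at 22, 69 and 92 in Control MO 1, 2 and 3. The groups did not overlap, but Control MO 1 lay far below the other controls, at 0.273 of their mean. The fitted log2 fold change came to 1.16 ± 0.46 (SE, n = 3 libraries a group; 95% interval 0.11 to 2.21; unadjusted p = 0.0337; adjusted p = 0.284, limma). Without Control MO 1 it was 0.56 ± 0.19 (adjusted p = 0.298, limma), and the glut12 MO libraries still lay above the remaining controls. The adjusted p ranged from 0.166 to 0.583 over 16 alternatives.

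The chromosome of this row leaves its identity uncertain. RefSeq's table for the assembly GRCz12tu places foxo1a on chromosome 15 and foxo6a on chromosome 16, whereas the files place foxo1a on chromosome 16 and a separate row, FOXO1 (3 of 3) (ENSDARG00000088879), on chromosome 15. That row held 15, 17 and 14 in glut12 MO and 3, 10 and 12 in Control MO, with a log2 fold change of 0.97 ± 0.47 (SE, adjusted p = 0.348, limma) that was 0.45 without Control MO 1. Both rows were thus highest in glut12 MO and lowest in Control MO 1. A further row, FOXO6 (2 of 2), also lies on chromosome 16 in Zv9, and the foxo1b row has the current symbol foxo1. Close copies can also share reads, and the authors' treatment of shared reads is not stated in the labels or files.

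The second copy, foxo1b (ENSDARG00000061549, chromosome 10), was at 13, 21 and 17 in glut12 MO and at 8, 21 and 16 in Control MO. These low values stand for an estimated 18, 29 and 15 reads in glut12 MO and 5, 21 and 15 reads in Control MO. The groups overlapped throughout, and the exact Poisson 95% interval of the lowest value, 2.53 to 18.2 in Control MO 1, covered 2 of the 3 glut12 MO values. Such intervals cover counting error only. The log2 fold change was 0.24 ± 0.39 (SE; 95% interval -0.66 to 1.14; adjusted p = 0.793, limma), an interval that holds both no change and a 2-fold increase. Its direction rested on Control MO 1, being -0.13 without that library (adjusted p = 0.9, limma).

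FoxO3 is known in mammals for driving autophagy and protein breakdown in muscle and for roles in neurons, ovary and blood stem cells. Its copy foxo3a (ENSDARG00000023058, chromosome 17) was at 1692, 1701 and 1702 in glut12 MO and at 1479, 1616 and 1682 in Control MO. The glut12 MO libraries lay within 10 counts of each other, and the lowest of them was 10 counts above the highest control. Both distances are smaller than counting error. The exact Poisson 95% interval was 1620 to 1760 in glut12 MO 1 and 1600 to 1770 in Control MO 3. The mean was 1698 ± 5.51 in glut12 MO and 1592 ± 104 in Control MO (SD, n = 3 each), with a log2 fold change of 0.09 ± 0.08 (SE; 95% interval -0.08 to 0.27; adjusted p = 0.578, limma). Without Control MO 1 the log2 fold change was 0.04 ± 0.06. The interval over all 6 libraries leaves out a change of 1.5-fold or more in either direction.

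The other copy, foxo3b (ENSDARG00000042904, chromosome 20), was at 2190, 2462 and 2287 in glut12 MO and at 1722, 1980 and 2312 in Control MO. Control MO 3 lay among the glut12 MO libraries and above 2 of them. The means were 2313 ± 138 in glut12 MO and 2005 ± 296 in Control MO (SD), with a log2 fold change of 0.22 ± 0.11 (SE; 95% interval -0.05 to 0.48; adjusted p = 0.389, limma). The value was 0.11 ± 0.09 without Control MO 1 and 0.32 without Control MO 3, neither of them called.

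FoxO4 is the FoxO that in mammals is known from muscle, vascular smooth muscle and senescent cells, and the files hold 1 copy. The foxo4 row (ENSDARG00000055792, chromosome 14) was at 323, 360 and 354 in glut12 MO and at 73, 250 and 265 in Control MO. All glut12 MO libraries were above all controls, and Control MO 1 was at 0.283 of the mean of the other controls. The log2 fold change was 1.02 ± 0.43 (SE; 95% interval 0.04 to 2.01; unadjusted p = 0.043; adjusted p = 0.305, limma). Leaving out Control MO 1 gave 0.42 ± 0.09 (unadjusted p = 0.00316, adjusted p = 0.193, limma), a smaller difference with a smaller error. The adjusted p ranged from 0.18 to 0.601 over 16 alternatives.

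**Figure D1:**
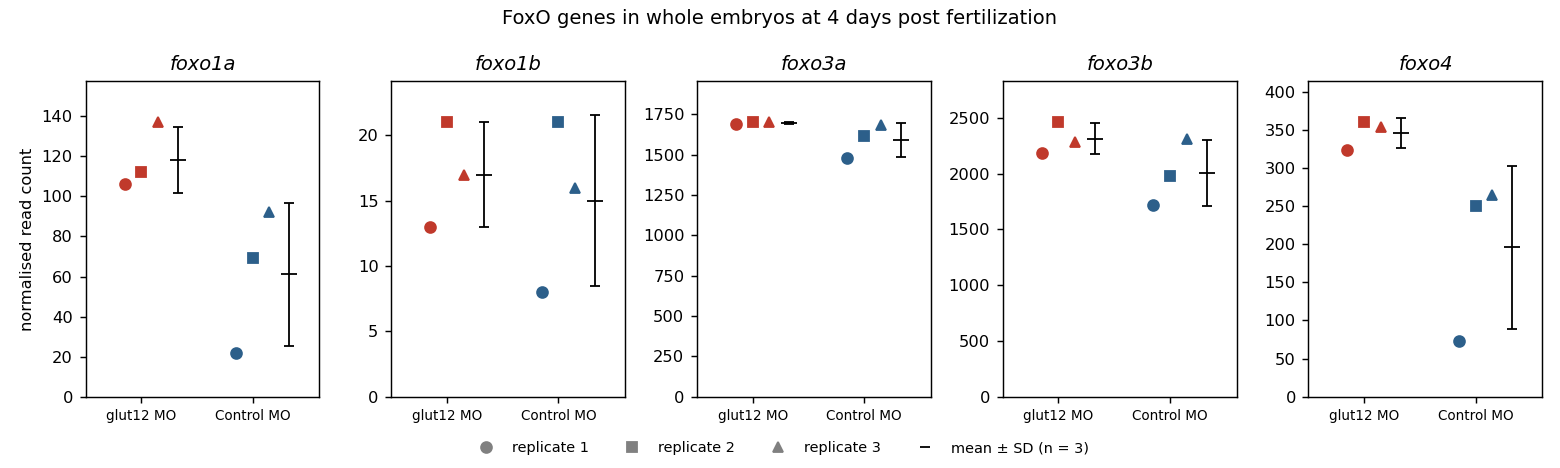
Normalised read count (vertical axis from 0, a scale for each gene) of the 5 FoxO genes in the glut12 MO and Control MO libraries. Symbols give the replicate number, which is not taken as a pairing, and the bar beside them the mean and SD of 3 libraries. Control MO 1 (circle) is the lowest control for every gene, at 22 for foxo1a and 73 for foxo4, while the glut12 MO libraries of foxo3a lie between 1692 and 1702.

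**Figure D2:**
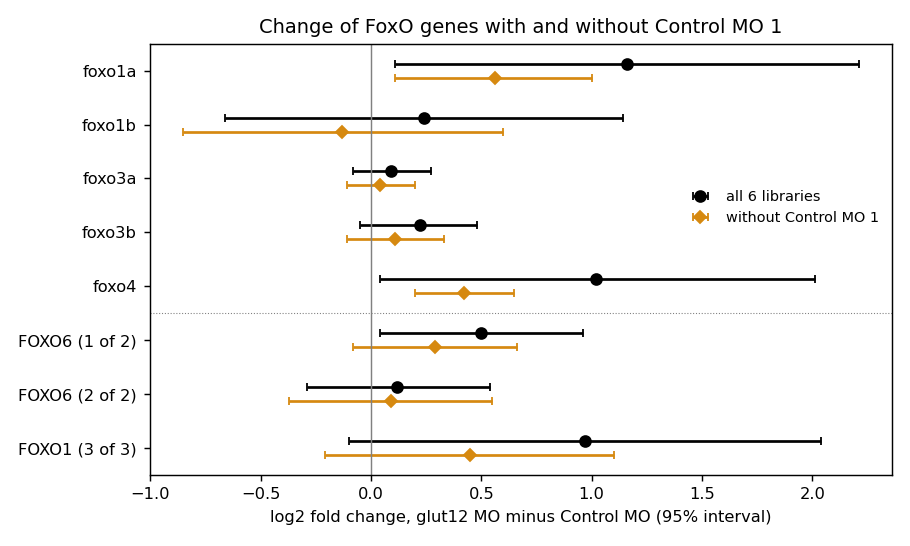
Log2 fold change of glut12 MO minus Control MO with its 95% interval from limma, for the 5 FoxO genes and, under the dotted line, the other rows whose symbols name a FOXO gene; circles use all 6 libraries and diamonds leave out Control MO 1. The value of foxo1a is 1.16 with all libraries and 0.56 without Control MO 1, and that of foxo4 is 1.02 and 0.42.

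Control MO 1 was the lowest of the 6 libraries for each of the 5 FoxO genes, which held for 27.2% of all genes tested. For foxo1a and foxo4 it lay under 0.4 of the lower of the other controls. Among genes with a mean of at least 50 this was so for 346 of 15942 genes (2.17%). Control MO 1 was also the shallowest library, and the part of depth or RNA quality in its values was not tested. The counting interval of foxo4 in Control MO 1, 53.8 to 97.4 from an estimated 47 reads, ended below every other library. For foxo1a the interval was 11.9 to 36.6 from an estimated 14 reads, also below every other library.

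Ratios between members within a library do not depend on how that library was scaled. The log2 ratio of foxo4 to foxo3a was -2.39, -2.24 and -2.27 in glut12 MO and -4.34, -2.69 and -2.67 in Control MO, higher in every glut12 MO library (exact permutation p = 0.1, two-sided, the smallest that 3 against 3 libraries allow). The ratio of foxo1a to foxo3a was -4.0, -3.92 and -3.63 in glut12 MO and -6.07, -4.55 and -4.19 in Control MO, again without overlap (exact permutation p = 0.1). Of the 10 ratios among the 5 members, 5 did not overlap between the groups, those of foxo1a and foxo4 to each foxo3 copy and that of foxo4 to foxo1b, and their exact permutation p adjusted over the 10 was 0.2. These 5 share foxo1a or foxo4 and are not separate results. The share of other gene pairs whose ratios do not overlap was not computed. Without Control MO 1 the mean differences were smaller, 0.38 in place of 0.93 for foxo4 to foxo3a and 0.52 in place of 1.09 for foxo1a to foxo3a.

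The ratio of foxo1a to foxo4 did not separate the groups. Its log2 value was -1.61, -1.68 and -1.37 in glut12 MO and -1.73, -1.86 and -1.53 in Control MO, a mean difference of 0.15 with overlapping groups (exact permutation p = 0.4). In Control MO 1 that ratio lay between those of the other controls, although both genes were lowest there. The ratio of the foxo3 copies also overlapped, and foxo3a made up 43.6%, 40.9% and 42.7% of the foxo3 counts in glut12 MO and 46.2%, 44.9% and 42.1% in Control MO (exact permutation p = 0.3). For the foxo1 pair, foxo1a made up 89.1%, 84.2% and 89.0% in glut12 MO and 73.3%, 76.7% and 85.2% in Control MO (exact permutation p = 0.2). These shares are not corrected for transcript length and can be compared only between libraries.

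**Figure D3:**
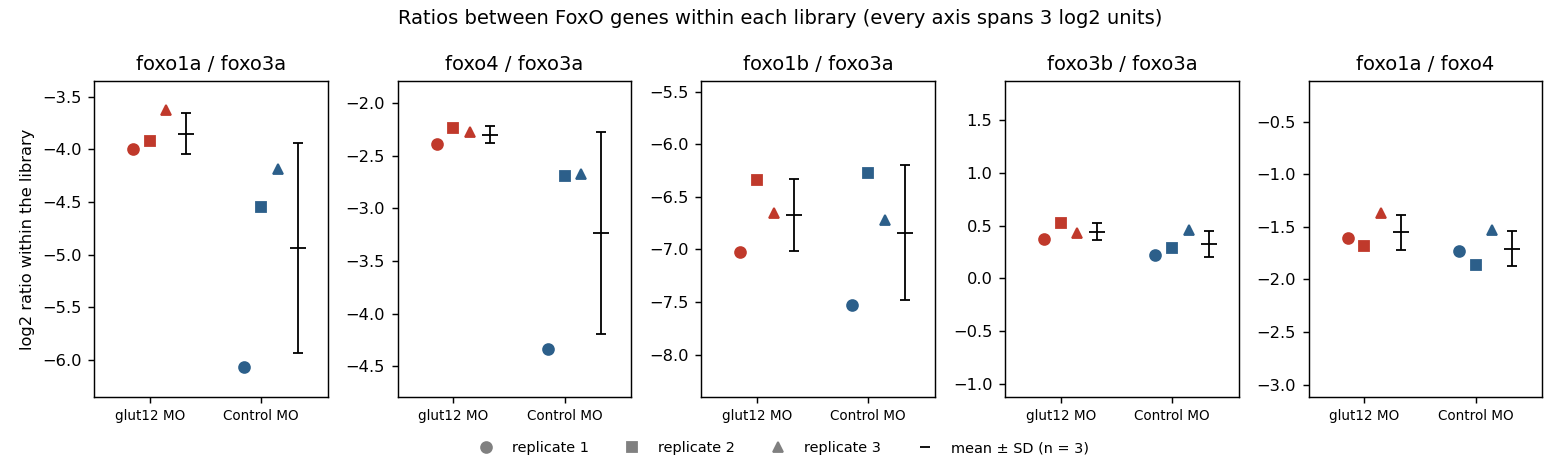
Log2 ratio of normalised read counts of pairs of FoxO genes within each library, with each vertical axis spanning 3 log2 units and mean ± SD of 3 libraries beside the points. The ratios of foxo1a and of foxo4 to foxo3a lie higher in every glut12 MO library than in every control, with Control MO 1 at -6.07 and -4.34, while the ratio of foxo1a to foxo4 overlaps between the groups.

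Summed over the 5 genes, FoxO counts were 4324, 4656 and 4497 in glut12 MO and 3304, 3936 and 4367 in Control MO. The highest control lay above the lowest glut12 MO library, so the groups overlapped. The foxo3 copies supplied most of these counts, and the sum therefore follows them. With library totals made equal, which shifted the median of all genes by 0.11 on the log2 scale, the sums were 4424, 4923 and 4689 in glut12 MO and 3088, 3781 and 4341 in Control MO and no longer overlapped.

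Across the 6 libraries the members' log2 values ran alike, with Pearson r of 0.99 between foxo1a and foxo3a and 0.986 between foxo1a and foxo4. The lowest r, 0.707, was between foxo1b and foxo3b. These values describe 6 libraries that share their scaling, 1 library far from the rest and the group difference, and 10.7% of 15826 genes had an r above 0.9 with foxo1a. The genes most like each member by r over the 6 libraries were ap1g1, atrnl1b and CR925817.1 for foxo1a (0.998 to 1.000) and PCDHAC2 (2 of 2), tpbga and ARHGAP23 (2 of 2) for foxo4 (0.999 to 1.000). They were hic1, tmem127 and nlk2 for foxo3a (0.999 to 1.000), kat2b, tnk2a and trpv1 for foxo3b (0.995 to 0.998) and agpat3, smarca2 and slkb for foxo1b (0.988 to 0.993). The kinase gene nlk2 and the acetyltransferase gene kat2b encode enzymes of kinds known in mammals to modify FoxO proteins. They are pointed out for that role only, as 10.4% of genes had an r above 0.9 with foxo3a and 6.53% with foxo3b.

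The genes that signal to FoxO were examined with a list of insulin and IGF receptors, their adaptors, phosphatidylinositol 3-kinase (PI3K) and the Akt and Sgk kinases, of which 24 of 27 were tested. Here 0 were called by limma or by voom, and 4 with library weights, which called 0.832% of all genes higher and 0.429% lower. At an unadjusted p of 0.05, 5 were higher and 0 lower, beside 8.99% and 6.93% of all genes, with a median log2 fold change of 0.12 against 0.00 over all genes. The insulin receptor gene insrb was at 247, 321 and 362 in glut12 MO and at 112, 146 and 180 in Control MO (log2 fold change 1.09 ± 0.20, SE, adjusted p = 0.149, limma). The PI3K regulatory subunit gene pik3r2 was at 67, 86 and 92 in glut12 MO and at 20, 35 and 38 in Control MO (1.41 ± 0.28, adjusted p = 0.158, limma). For rictora, a subunit of the kinase complex that phosphorylates Akt, the values were 110, 162 and 169 in glut12 MO and 47, 82 and 79 in Control MO. All 3 genes separated the groups, as did the IGF receptor gene igf1ra (1.17 ± 0.27) and pik3ca (1.93 ± 0.64), whose values in Control MO spread from 6 to 56. These genes were named for their low p. Over the 24 genes of the list 7 were higher and 1, akt2l, lower without overlap, against 11.6% and 10.2% of all genes. The other insulin receptor gene, insra, differed by 0.13 ± 0.08 without overlap, and the Akt gene akt2 by -0.06 ± 0.10 in overlapping groups. Without Control MO 1 the log2 fold change of insrb was 0.91 and that of pik3ca 1.13.

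Proteins that modify or bind FoxO, among them 14-3-3 proteins, acetyltransferases and stress kinases, formed a list of which 37 of 38 genes were tested. Again 0 were called by limma, by voom or with library weights, and the median was 0.01. At an unadjusted p of 0.05, limma gave 6 as higher and 3 as lower, against 8.99% and 6.93% of all genes. Without overlap 9 were higher and 8 lower, against 11.6% and 10.2% of all genes. The stress kinase gene mapk8b was at 98, 141 and 132 in glut12 MO and at 14, 65 and 56 in Control MO, with its lowest value in Control MO 1 as for foxo1a and foxo4, and its log2 fold change was 1.68 ± 0.51 over all libraries and 1.01 without Control MO 1. The acetyltransferase genes ep300a and ep300b differed by 0.25 ± 0.08 and 0.37 ± 0.11 on the log2 scale, and xpo1b, a nuclear export receptor, by 0.46 ± 0.15. For the 14-3-3 genes ywhaqa and ywhabb the log2 fold changes were -0.20 ± 0.08 and -0.21 ± 0.08, lower without overlap. Also lower without overlap were ywhaba (-0.15), ywhae1 (-0.15), ywhah (-0.13) and ywhaqb (-0.12). The values of ywhaz (-0.18), ywhag2 (-0.15) and ywhag1 (-0.01) overlapped. The 14-3-3 gene ywhae2 pointed the other way, higher without overlap (1.11 ± 0.47, and 0.46 without Control MO 1).

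Known FoxO targets lay on both sides of 0. Of 73 listed targets 70 were tested, and limma and voom called 0 of them, against 3 with library weights, which called 0.832% of all genes higher and 0.429% lower. At an unadjusted p of 0.05 (limma), 7 were higher and 9 lower, against 8.99% and 6.93% of all genes. In sign, 32 log2 fold changes were positive and 38 negative, beside 13170 and 12912 among all 26082 genes tested. The median was -0.03, against 0.00 over all genes. The lists do not record if FoxO raises or lowers a target, so these pooled signs do not show FoxO activity. The mammalian roles of these genes as FoxO targets were taken over to their zebrafish namesakes.

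Among metabolic targets, genes lay on both sides. The genes pdk4 and pdk2b encode pyruvate dehydrogenase kinases, which hold back glucose oxidation. The gene pdk4 was at 273, 344 and 351 in glut12 MO and at 170, 200 and 248 in Control MO (log2 fold change 0.65 ± 0.16, SE, adjusted p = 0.193, limma), and pdk2b, listed as pdk2, was at 258, 584 and 547 in glut12 MO and at 249, 195 and 163 in Control MO (1.12 ± 0.30, adjusted p = 0.198, limma). Both separated the groups and were named for their low p. Over the 16 tested genes of this list 3 were higher and 3 lower without overlap, against 11.6% and 10.2% of all genes. The coactivator gene ppargc1a, which acts with FoxO1 in mammalian liver, was at 192, 222 and 241 in glut12 MO and at 64, 145 and 163 in Control MO, a log2 fold change of 0.91 ± 0.32 that was 0.50 without Control MO 1. The gluconeogenic gene pck1, a classic FoxO1 target, pointed the other way, at 1102, 1334 and 1720 in glut12 MO and 2409, 1623 and 1867 in Control MO (-0.51 ± 0.19, adjusted p = 0.264, limma), with overlapping groups. The values of igfbp1a, another insulin-repressed liver gene, overlapped (0.33 ± 0.22, with 0.49 without Control MO 1 and 0.08 without Control MO 2). The translation inhibitor gene eif4ebp3 differed by -0.42 ± 0.12 and was lower without overlap.

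The muscle atrophy targets did not pass the test, and fbxo32 and trim63a overlapped between the groups. The ubiquitin ligase gene fbxo32 (atrogin-1) was at 40, 56 and 39 in glut12 MO and at 41, 56 and 38 in Control MO, a log2 fold change of 0.00 ± 0.24 (SE). The MuRF1 gene trim63a, listed as trim63, was at 372, 346 and 336 in glut12 MO and at 425, 373 and 347 in Control MO (-0.12 ± 0.11). Its copy trim63b differed by -0.22 ± 0.10 and was lower without overlap. Of the autophagy genes, the initiating kinase genes ulk1a and ulk1b differed by 0.41 ± 0.14 and 0.95 ± 0.31 and the mitophagy receptor gene bnip3la by 0.49 ± 0.17, while the lipid kinase gene pik3c3 differed by -0.39 ± 0.13. Without Control MO 1 the value of ulk1b was 0.59. Each of these 4 autophagy genes separated the groups, and none passed adjustment (adjusted p of 0.233 to 0.256, limma). They were named for their low p, and over the 17 genes of this list 3 were higher and 3 lower without overlap, against 11.6% and 10.2% of all genes. At an unadjusted p of 0.05 (limma), 3 of the 17 were higher and 1 lower, against 8.99% and 6.93% of all genes.

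Stress, cell cycle and feedback targets included the most negative log2 fold change of the 7 lists, that of ddit4. The gene ddit4, an inhibitor of mTOR signalling, was at 152, 120 and 148 in glut12 MO and at 332, 252 and 225 in Control MO (log2 fold change -0.93 ± 0.17, SE, adjusted p = 0.147, limma). The gene tsc22d3 (GILZ) was at 695, 688 and 725 in glut12 MO and at 949, 870 and 889 in Control MO (-0.36 ± 0.08, adjusted p = 0.164, limma). The thioredoxin-binding gene txnipa differed by -0.36 ± 0.08, the selenoprotein P gene sepp1a by -0.42 ± 0.11, the peroxiredoxin gene prdx5 by -0.28 ± 0.10 and the endothelial transcription factor gene klf2a by -0.60 ± 0.18, each named for its low p and with every glut12 MO library below every control. The pro-apoptotic gene bcl2l11 (Bim) pointed the other way at low counts, 13, 24 and 23 in glut12 MO and 9, 7 and 11 in Control MO. The cyclin-dependent kinase inhibitor gene cdkn1a (0.10 ± 0.18) and the sestrin gene sesn1 (-0.03 ± 0.08) overlapped between the groups, and sesn3 differed by 0.16 ± 0.09. Among the remaining feedback genes, trib3, pik3ip1 and cited2 overlapped, with log2 fold changes of 0.19, -0.15 and -0.10, and the cell cycle genes klf6a, gadd45ba, ccnd1 and rbl2 had values from -0.53 to 0.26, that of gadd45ba being -0.18 without Control MO 1. Of 15 tested stress genes 2 were higher and 3 lower without overlap, against 11.6% and 10.2% of all genes. The counts were 1 higher and 3 lower of 17 cell cycle genes and 0 higher and 2 lower of 5 feedback genes.

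**Figure D4:**
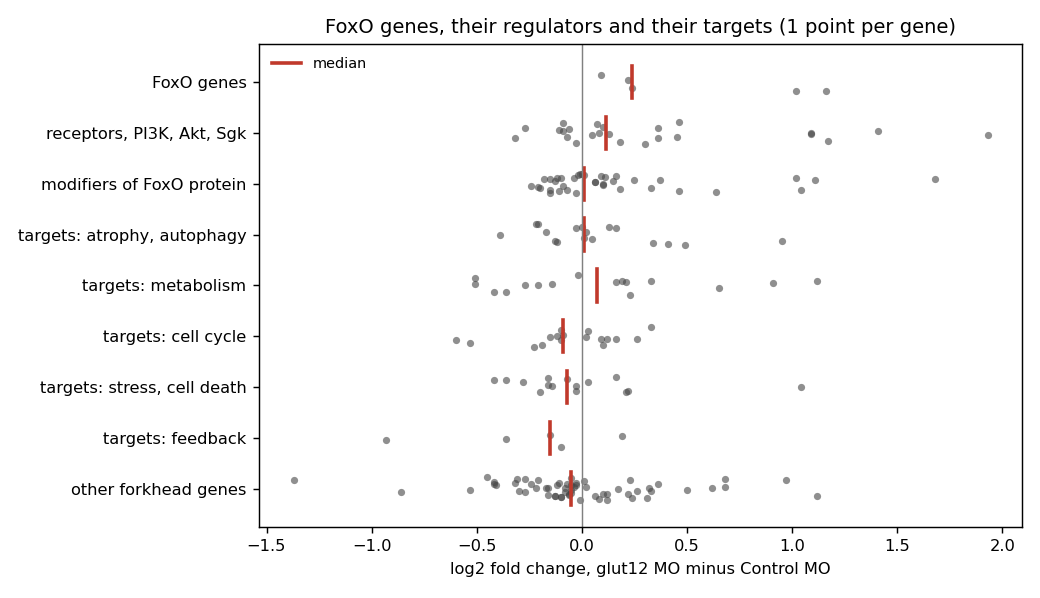
Log2 fold change of glut12 MO minus Control MO for each FoxO member and each tested gene of the lists of FoxO regulators and targets. The row of other forkhead genes shows all other symbols that start with fox. The median of each list is in red, and vertical scatter within a row has no meaning. The FoxO points are all above 0 with these 6 libraries, with a median of 0.24, while the medians of the target lists lie between -0.15 and 0.07.

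The family's surroundings were taken as all other rows whose symbols start with fox. Besides forkhead genes these hold foxred1 and foxred2, which are not forkhead genes, and they include the FOXO6 and FOXO1 (3 of 3) rows. Of 60 such rows 59 were tested and 0 called by limma, by voom or with library weights. At an unadjusted p of 0.05 (limma), 2 were higher and 2 lower, against 8.99% and 6.93% of all genes. Without overlap 3 were higher and 4 lower, against 11.6% and 10.2% of all genes. The median log2 fold change was 0.24 for the FoxO members and -0.05 for these rows. Without Control MO 1 the medians were 0.11 for the FoxO members and 0.04 for these rows. The row FOXO6 (1 of 2), named foxo6b in the current gene table, was at 263, 224 and 238 in glut12 MO and at 128, 168 and 230 in Control MO (0.50 ± 0.20, SE, adjusted p = 0.292, limma), with overlapping groups and its lowest value in Control MO 1, without which the log2 fold change was 0.29. FOXO6 (2 of 2) was at 67, 92 and 96 in glut12 MO and at 73, 78 and 80 in Control MO (0.12 ± 0.18). Outside the FoxO rows the forkhead genes with a mean of at least 10 and the lowest unadjusted p were foxn3 (1.12 ± 0.37, and 0.70 without Control MO 1) and the ionocyte regulator foxi3b (-0.41 ± 0.16), neither passing adjustment (adjusted p of 0.237 and 0.288, limma). Below that mean, and named after its values were seen, foxb2 had the lowest unadjusted p of the list, 0.00731, at 6, 5 and 3 in glut12 MO and 9, 16 and 16 in Control MO (adjusted p = 0.206, limma).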

How the data were processed

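The deposited values are a score: read counts per gene that the authors had divided by a size factor and rounded to whole numbers. This was read from the values, in which 36, 10 and 7 of the whole numbers from 1 to 100 are never used in Control MO 1, glut12 MO 3 and Control MO 3. A search for the step that best fits how often each of these numbers occurs gave the worth of 1 read and the depths. That worth was 1.56 in Control MO 1 and 0.708 in glut12 MO 1. In glut12 MO 1, glut12 MO 2 and Control MO 2 no number is unused. The steps and depths of those libraries rest on the frequencies alone and are less certain. Per the submitters' processing notes the genome build was Zv9; the labels and files name no aligner, counting program or strand setting. Genes with at least 1 in at least 3 libraries (26082) were compared as log2(value + 1), a scale that understates changes of low genes, with limma 3.58.1 in R 4.3.3, with a mean-variance trend, two-sided, with Benjamini-Hochberg adjustment at 0.05. Ratios and shares were compared by exact permutation over libraries. The fit was tested on simulated counts with the same dispersion for every gene and no outlying library. That test therefore does not cover data with a library like Control MO 1.

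The members, the 7 gene lists (131 of 138 entries found and tested; some entries are not reported here) and the tests were chosen with earlier results of these data known. Named were all members, up to 5 genes per list with the lowest p and a mean of at least 10, preset genes, the 3 forkhead genes with the lowest p and a mean of at least 10 and, for each member, the 3 genes with a mean of at least 50 and the highest Pearson r; akt1 was also preset but not matched and is not analysed here. Alternatives were other scalings, filters, pseudocount, empirical Bayes steps, library weights, the replicate block and each library left out, and voom, chosen after seeing the data.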

Additional observations from a re-analysis of the deposited data

How the results depend on the processing

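No FoxO gene was called under any of the 16 alternatives, and foxo1a, foxo3a, foxo3b and foxo4 kept a positive direction in all of them. The filters, empirical Bayes steps and replicate block cannot change a log2 fold change, so direction was fixed under those. With 1 library left out foxo1b ranged from -0.13 to 0.52, the negative value being that without Control MO 1. Control MO 1 had the lowest library weight, 0.316. With library weights, 6 of 131 regulators and targets were called higher (insrb, igf1ra, pik3r2, rictora, pdk2b and pdk4) and 1 lower (ddit4). This compares with 0.832% of all genes called higher and 0.429% called lower. Limma with equal weights called 0 of the 131. The cause was not tested. Direction turned for genes with values near 0. With equal totals akt2 was at 0.05, cited2 at 0.01 and sesn1 at 0.08; with voom akt2 was at 0.05, cited2 at 0.03, sesn1 at 0.08 and trim63a at 0.01. With library weights fbxo32 was at -0.01. With 1 library left out fbxo32 ranged from -0.16 to 0.17, cdkn1a from -0.05 to 0.23 and sesn1 from -0.07 to 0.02. With 1 library left out, the difference in the log2 ratio of foxo1b to foxo3b ranged from -0.25 to 0.35 and that of foxo1b to foxo3a from -0.18 to 0.45, lowest without Control MO 1, and foxo1b to foxo3b was also negative (-0.07) without glut12 MO 2.

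Same-numbered libraries deviated together with r of 0.104, -0.0587 and 0.118, against -0.228 to 0.212 for libraries with different numbers. With deviations taken within groups of 3 libraries, these r cannot decide if the replicate number stands for a pairing. In this balanced design the replicate block changes only the error, and the log2 fold changes remain 1.16 for foxo1a and 1.02 for foxo4. With it the adjusted p was 0.24 for foxo1a and 0.262 for foxo4 (limma), and 0 members were called. Pairing likewise leaves the mean differences in the shares of foxo1a and foxo3a at 9.02 and -2.05 percentage points. Depth limits foxo1b most, at an estimated 5 to 29 reads a library.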
